A study of Mus musculus with 62 samples.

Results

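The genes described here are 10 that move amino acids across the membrane of the muscle fiber, make glutamine from glutamate, or start the breakdown of branched-chain amino acids. They were taken by symbol from the expression table of mouse diaphragm muscle, in which all 10 were found among 47643 listed genes, and all 10 passed the filter on low values, as did 13578 genes in all. They are Slc7a5, Slc3a2 and Slc7a8 of the system L transporter of large neutral amino acids, Slc38a2 and Slc1a5 of glutamine and small neutral amino acid uptake, Glul of glutamine synthesis, and Bcat2, Bckdha, Bckdhb and Bckdk of branched-chain catabolism. The samples are diaphragms of 62 female mice, with injections given at 2 months of age. One group received cells of a melanoma xenograft that induces cachexia (cachectic mice), another a melanoma xenograft that does not (non-cachectic mice), and the control mice a mock injection. Diaphragms were collected 2, 4, 6 and 8 weeks later, with 5 mice in each of 11 conditions and 7 cachectic mice at 8 weeks. Each sample is 1 mouse, so that the errors given are between mice.

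Per the methods and the series' design text, the hosts are NCI Ath/nude mice, which lack a thymus and mature T cells, whereas the sample labels name C57BL6/J; the difference was not resolved here. Each xenograft is 1 patient-derived tumor stock, so that cachexia and the other properties of that tumor cannot be told apart. Because the RNA came from whole muscle, fewer cells of a type and less RNA per cell cannot be told apart in any of the differences below.

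Skeletal muscle is the main site of the first step of branched-chain amino acid breakdown, in which Bcat2, the mitochondrial aminotransferase, moves the amino group of leucine, isoleucine or valine to 2-oxoglutarate. The keto acids formed are then decarboxylated by the branched-chain keto acid dehydrogenase complex, whose E1 component holds the alpha subunit Bckdha and the beta subunit Bckdhb, and which is switched off when the kinase Bckdk phosphorylates Bckdha. The glutamate formed can be turned by Glul, glutamine synthetase, into glutamine, the form in which muscle exports much of its amino nitrogen. Large neutral amino acids cross the membrane through a light chain, Slc7a5 (LAT1) or Slc7a8 (LAT2), bound to the heavy chain Slc3a2 (CD98), while Slc38a2 (SNAT2) is a sodium-coupled carrier and Slc1a5 (ASCT2) a sodium-dependent exchanger of glutamine and other neutral amino acids.

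Values are TPM (transcripts per 1000000, which scale for gene length and set every library to a total of 1000000), and the number of reads behind them is unknown, so that no counting error can be given. The libraries listed from 15069 to 19057 genes above 0 (median 18296.5). Of these, 4 libraries listed fewer than 17000 genes, at most 16389, against at least 17909 in the others, and drew at least 54.4% of their TPM from 37 mitochondrial genes, against at most 50.1% in the others. At 2 weeks these were replicates 3 and 4 of the cachectic and replicate 5 of the non-cachectic mice, and at 8 weeks it was cachectic replicate 3. Results are given with and without them, since their part in the differences was not tested otherwise. The 12 markers of skeletal muscle, such as Acta1, Ckm and Tnnt3, were above 0 in all mice, with a summed level of 71312 to 86834 TPM in control and 51223 to 115729 TPM in cachectic mice at 8 weeks. Of the 3 libraries with high hepatocyte markers (mean log2 level over 8), all were control mice at 2 weeks (replicates 2, 4 and 5). Just under this limit were cachectic replicate 5 at 6 weeks, at 7.63, and cachectic replicate 1 at 2 weeks, at 7.54.

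In control mice at 4 to 8 weeks, the genes of nitrogen handling were expressed at far higher levels than the light chains of system L. Glul had a mean level of 221 TPM (rank 372 of the 47643 genes), Bckdha 176 TPM, Bcat2 109 TPM, Slc38a2 82.3 TPM, Bckdk 75.0 TPM and Bckdhb 49.3 TPM. Lower levels were found for Slc1a5 with 18.5 TPM and the heavy chain Slc3a2 with 17.0 TPM, followed by the light chains Slc7a8 with 4.22 TPM and Slc7a5 with 2.52 TPM. Across all 20 control mice the spread was narrow for Bcat2 (88.3 to 126 TPM), Bckdhb (43.1 to 59.5 TPM) and Slc3a2 (12.8 to 20.4 TPM). By contrast, Slc1a5 went from 8.09 to 54.8 TPM and Glul from 96.3 to 368 TPM. None of the 10 genes was called between control mice at 8 and at 4 weeks (0 of 10 in limma and 0 by Dunn's test). At an unadjusted p under 0.05 it was 0 of 10 too. Both tests called 0% of all genes here, so that these counts cannot show that the levels were equal. The log2 differences (8 less 4 weeks, ± SE from limma) went from -0.58 ± 0.42 for Glul to 0.14 ± 0.24 for Slc3a2. Mean Glul was 174 TPM in controls at 8 weeks and 260 TPM at 4 weeks.

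The RefSeq promoter table (GRCm38.p6) holds 10 windows for 8 of the 10 genes, Slc7a5 and Slc1a5 not among them. Bases upstream of the annotated start are shown for Glul, Slc38a2, Slc7a8 and Bckdk. Glul (chr1:153899679-153899928, plus strand) and Slc38a2 (chr15:96699731-96699978, minus strand) were called higher in cachectic mice in at least 1 of the comparisons below. Slc7a8 (chr14:54781947-54782136, minus strand) was called higher only in alternative fits, such as that without the 4 libraries with few genes. Bckdk (chr7:127903823-127904072, plus strand) was called lower. Bckdhb, also called higher without these libraries, is not shown. The window of Slc3a2 begins within an annotated exon, downstream of the annotated 5′ end of the gene, and is not shown. Each sequence runs 5′ to 3′ and ends at the last base before the first annotated exon or the RefSeq start, and capitals mark the GC box, which reads GGGCGG, the CCAAT box or a glucocorticoid receptor half-site (AGAACA), on either strand.
Glul: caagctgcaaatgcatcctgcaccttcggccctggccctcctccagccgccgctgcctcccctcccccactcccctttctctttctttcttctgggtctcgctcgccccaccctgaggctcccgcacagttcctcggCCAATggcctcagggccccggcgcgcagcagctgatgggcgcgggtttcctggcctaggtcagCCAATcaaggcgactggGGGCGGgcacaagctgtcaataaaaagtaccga
Slc38a2: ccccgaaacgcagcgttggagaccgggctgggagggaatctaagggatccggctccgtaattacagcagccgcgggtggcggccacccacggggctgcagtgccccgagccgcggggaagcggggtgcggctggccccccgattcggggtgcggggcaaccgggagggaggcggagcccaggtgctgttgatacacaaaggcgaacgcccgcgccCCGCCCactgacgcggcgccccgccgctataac
Slc7a8: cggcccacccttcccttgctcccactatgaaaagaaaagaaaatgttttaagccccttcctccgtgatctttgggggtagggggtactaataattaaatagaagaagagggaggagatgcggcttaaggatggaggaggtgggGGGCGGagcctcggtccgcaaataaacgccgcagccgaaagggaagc
Bckdk: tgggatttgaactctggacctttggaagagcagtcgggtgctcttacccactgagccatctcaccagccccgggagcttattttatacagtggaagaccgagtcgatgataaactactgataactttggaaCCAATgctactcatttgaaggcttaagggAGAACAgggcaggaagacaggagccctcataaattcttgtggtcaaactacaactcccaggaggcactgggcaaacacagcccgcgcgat

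The 250 bases before the RefSeq start were searched in all 32851 windows. A GC box was found in 32.7% of all windows and in 5 of the 10 windows of these genes, those of Glul, Slc38a2, Slc7a8 and Slc3a2 and 1 of the 2 of Bckdhb. A CCAAT box was in 33.8% of all windows and in 3 of these 10 (Glul, Bckdk and Bckdhb), and the glucocorticoid receptor half-site in 16.1% and in 2 (Bckdk and Bckdhb). The composite site of ATF4 and C/EBP (TGATGNAA), at which the amino acid response is known to act, and the STAT motif TTCNNNGAA were in none of the 10, against 3.45% and 7.02% of all windows. Both strands were searched, no match in these genes overlaps another, and a site outside the window would not be seen.

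The first question was which of these genes differ between cachectic and control mice as wasting develops. In the diaphragm of cachectic mice Slc3a2 and Glul rose at 6 and at 8 weeks, and Bckdk fell at 8 weeks. At 6 weeks 2 of the 10 genes were called (adjusted p under 0.05), both higher, against 6.79% of all genes tested (5.62% higher). At 8 weeks 3 of 10 were called, 2 higher and 1 lower, against 14.8% of all genes (6.65% higher and 8.12% lower). The median log2 difference of the 10 genes was 0.55 at 6 weeks, against 0.17 over all genes tested, and 0.46 at 8 weeks, against -0.094. Fold changes are on the scale of log2(TPM + 1), which understates the change of genes with low levels such as Slc7a5. These calls depend on the spread shared by all conditions. Fitted with the compared mice alone, 7 of 10 genes were called at 6 weeks, against 29.7% of all genes, and 0 at 8 weeks, against 4.07%, where cachectic replicate 3 was far from the other mice. The rank test of Dunn called 2 genes at 8 weeks, Glul and Bckdk, against 8.26% of all genes. At 6 weeks it called 0% of all genes, so that its count of 0 among the 10 says nothing about them, and 6 of the 10 (Slc3a2, Slc7a8, Slc38a2, Slc1a5, Glul and Bckdhb) had an unadjusted p under 0.05. Its counts of 0 at 2 and 4 weeks, given below, are of the same kind.

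In comparison with non-cachectic mice, whose xenograft does not induce cachexia, Slc3a2 and Glul again differed at 6 and 8 weeks, and Slc38a2 at 6 weeks. Here 3 of 10 genes were called at 6 weeks, all higher, against 5.85% of all genes (4.28% higher), and 2 of 10 at 8 weeks, both higher, against 12.9% (6.75% higher). These comparisons share the cachectic mice with the former ones and are not independent of them. Between non-cachectic and control mice limma called 0 of the 10 genes at 2, 4, 6 or 8 weeks, against 4.43%, 0%, 0% and 0% of all genes. At each week 0 of the 10 had an unadjusted p under 0.05. Dunn's test called 0 of the 10 and 0% of all genes at each week, so that its counts say nothing about them.

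**Figure D1:**
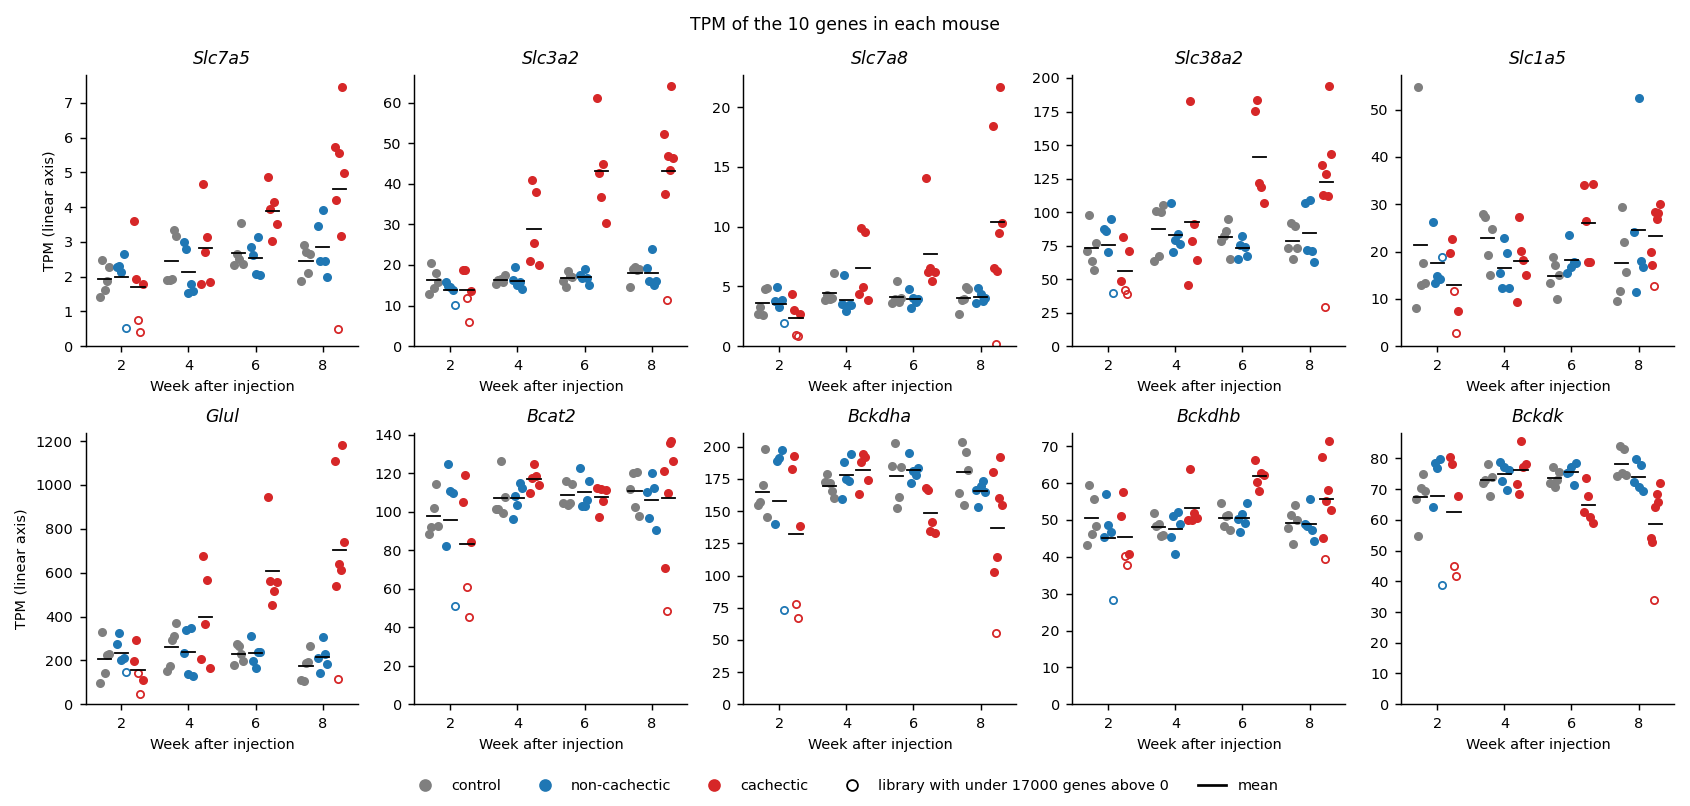
TPM of the 10 genes (linear axes from 0) in each of the 62 mice by week after injection. Points are mice, black lines are means, colors are groups, and open points are the 4 libraries that listed fewer than 17000 genes. Slc3a2 and Glul of cachectic mice stand above the other groups at 6 weeks, and at 8 weeks in all cachectic mice except replicate 3.

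Slc3a2, the heavy chain that carries both light chains to the membrane, is at chr19:8706882-8723369, minus strand (GRCm38). At 6 weeks its level in cachectic mice was 61.3, 42.6, 36.8, 44.8 and 30.4 TPM, compared to 16.1, 14.7, 18.6, 17.3 and 17.0 TPM in controls and 17.5, 16.8, 19.0, 16.7 and 14.9 TPM in non-cachectic mice. Every cachectic mouse was above every mouse of the other groups. The log2 difference was 1.28 ± 0.24 (SE; limma, adjusted p = 0.000394) from controls, a 2.43-fold change on that scale, and 1.26 ± 0.24 (SE; limma, adjusted p = 0.000593) from non-cachectic mice.

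At 8 weeks the 7 cachectic mice had from 11.4 to 64.0 TPM of Slc3a2, with a median of 46.4 TPM, while controls had 14.7, 18.9, 19.4, 18.7 and 19.0 TPM and non-cachectic mice 19.1, 16.1, 23.9, 15.1 and 16.1 TPM. The lowest cachectic value belongs to replicate 3, 1 of the 4 libraries with few genes, and without it the groups do not overlap. The difference from controls was 1.07 ± 0.23 (SE; limma, adjusted p = 0.000479), and 1.36 ± 0.14 (SE; limma, adjusted p = 5.63e-10) without the 4 libraries. From non-cachectic mice it was 1.09 ± 0.23 (SE; limma, adjusted p = 0.000441).

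At 4 weeks Slc3a2 was the only 1 of the 10 genes whose cachectic range lay apart from those of both other groups. Cachectic mice had 20.9, 40.8, 25.4, 37.9 and 19.9 TPM, above the 15.2 to 17.5 TPM of controls and the 14.0 to 19.5 TPM of non-cachectic mice. Ranges that do not overlap were found for 6.84% of all genes against controls and 6.43% against non-cachectic mice at 4 weeks. The count of 1 of 10 is near these shares. The difference from controls at 4 weeks, 0.74 ± 0.24 (SE; limma, adjusted p = 0.448), did not pass the test. Without the 4 libraries, none of which is from week 4 but which enter the shared spread, it was 0.74 ± 0.15 (SE; limma, adjusted p = 0.00507), and 0.75 ± 0.15 (SE; limma, adjusted p = 0.00322) from non-cachectic mice.

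Slc7a5, the light chain LAT1, lies at chr8:121881150-121907694, minus strand, and overlaps Gm20388 on the other strand, a gene with a mean of 26.3 TPM in controls, with which reads could be shared if strand was not used in the counting. Its level at 6 weeks was 4.87, 3.95, 3.02, 4.16 and 3.51 TPM in cachectic mice and 2.32, 2.66, 2.50, 3.55 and 2.36 TPM in controls, and the ranges overlapped. At 8 weeks cachectic mice had from 0.505 to 7.46 TPM (median 4.98 TPM), and controls 1.88, 2.90, 2.70, 2.11 and 2.65 TPM. Apart from replicate 3 at 0.505 TPM, every cachectic mouse was above every control. The difference was 0.53 ± 0.25 (SE; limma, adjusted p = 0.159) with all mice and 0.82 ± 0.17 (SE; limma, adjusted p = 0.000114) without the 4 libraries, so that the call depends on them. Gm20388 itself differed from controls by -0.015 on the log2 scale at 8 weeks (limma, adjusted p = 0.985) and by 0.58 at 6 weeks (limma, adjusted p = 0.330), where Slc7a5 differed by 0.41, and the part of shared reads was not tested.

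Slc7a8, the light chain LAT2, is at chr14:54722209-54781946, minus strand. Its level at 6 weeks was 14.1, 6.23, 6.51, 5.43 and 6.17 TPM in cachectic mice, with replicate 1 far above the other cachectic mice, compared to 3.61, 3.94, 5.43, 3.70 and 4.06 TPM in controls, whose highest value is level with the lowest cachectic one. At 8 weeks the cachectic mice had from 0.199 to 21.7 TPM (median 9.48 TPM), the widest spread of the 10 genes relative to the mean, and controls 2.70, 3.89, 3.92, 4.98 and 4.77 TPM. All cachectic mice but replicate 3 were above all controls. The difference at 8 weeks was 0.79 ± 0.35 (SE; limma, adjusted p = 0.124) with all mice and 1.26 ± 0.22 (SE; limma, adjusted p = 1.52e-05) without the 4 libraries.

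Light and heavy chain were also set against each other. The ratio of Slc7a5 to Slc3a2 TPM within a library, which does not depend on how libraries are scaled to each other, was 0.161 ± 0.0310 (SD, n = 5) in controls and 0.0926 ± 0.0143 (SD, n = 5) in cachectic mice at 6 weeks, with ranges of 0.134 to 0.205 and 0.0795 to 0.116 that do not overlap. Non-cachectic mice had 0.109 to 0.187 at 6 weeks, which overlaps the cachectic range. At 8 weeks it was 0.135 ± 0.0150 (SD, n = 5) against 0.0974 ± 0.0279 (SD, n = 7), and 2 of the 7 cachectic values lay within the control range of 0.113 to 0.153. The 4 libraries with few genes had the lowest ratios of all mice, from 0.0443 to 0.0672, and the lowest of these is cachectic replicate 3 in the 8-week mean. For Slc7a8 over Slc3a2 the ranges overlapped at both weeks. These ratios were formed after the values of the genes were known and were not tested.

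Slc38a2, the carrier SNAT2, whose transcript is known to rise when amino acids are scarce, is at chr15:96687392-96699730, minus strand. At 6 weeks its level was 175, 184, 121, 119 and 107 TPM in cachectic mice, compared to 78.2, 82.1, 86.0, 94.8 and 64.7 TPM in controls and 65.3, 75.7, 82.1, 74.1 and 67.2 TPM in non-cachectic mice, and every cachectic mouse was above every mouse of the other groups. The difference passed the test against non-cachectic mice, at 0.91 ± 0.29 (SE; limma, adjusted p = 0.0475), and missed it against controls, at 0.77 ± 0.29 (SE; limma, adjusted p = 0.101). Between non-cachectic and control mice, the contrast by which these differ, it was -0.15 ± 0.29 (SE; limma, adjusted p = 1). With the mitochondrial share of each library in the model, the difference from non-cachectic mice was 0.46 (adjusted p = 0.121) and the call was lost. It remained in 1 of the 10 fits that leave out 1 mouse each, with an adjusted p of up to 0.157 (limma, without cachectic replicate 1).

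At 8 weeks Slc38a2 ranged from 29.4 to 194 TPM in cachectic mice (median 129 TPM), and was 73.5, 91.5, 64.9, 89.2 and 73.1 TPM in controls. Only replicate 3 of the cachectic mice was not above all controls. The difference from controls was 0.48 ± 0.27 (SE; limma, adjusted p = 0.250) with all mice, and 0.79 ± 0.20 (SE; limma, adjusted p = 0.00191) without the 4 libraries. At 4 weeks 1 cachectic mouse, replicate 2, reached 183 TPM, while the other cachectic mice had from 45.6 to 91.1 TPM, within or below the control range up to 105 TPM.

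Slc1a5, the exchanger ASCT2, is at chr7:16781340-16798274, plus strand, and varied widely among mice of the same group. At 6 weeks it was 34.0, 26.5, 17.7, 17.8 and 34.2 TPM in cachectic and 13.2, 18.8, 17.3, 9.94 and 15.1 TPM in control mice, with a difference of 0.74 ± 0.37 (SE; limma, adjusted p = 0.248). At 8 weeks the difference was 0.44 ± 0.34 (SE; limma, adjusted p = 0.447) with all mice and 0.57 ± 0.33 (SE; limma, adjusted p = 0.178) without the 4 libraries, and the ranges overlapped, at 12.7 to 30.1 TPM in cachectic and 9.54 to 29.4 TPM in control mice. Single mice stood high in other groups too, such as non-cachectic replicate 3 at 8 weeks with 52.4 TPM. Its level moved with the adipocyte markers: over mice, after subtraction of the condition means, Pearson's r between Slc1a5 and the summed level of 7 adipocyte markers (log2 scale) was 0.48 in 62 mice and 0.82 in the 58 without the libraries with few genes, while for Glul it was -0.16 and 0.18. With the summed level of the hepatocyte markers, r of Slc1a5 was 0.46 in 62 and 0.57 in 58 mice. That of Glul was 0.22 and 0.36. These points share libraries and their depth, and the part of adipose tissue or of liver in Slc1a5 was not tested further.

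Glul, glutamine synthetase, at chr1:153899944-153909723, plus strand, had the largest log2 difference of the 10 genes at 6 and at 8 weeks in both comparisons of cachectic mice, with all mice. At 6 weeks its level was 945, 561, 453, 518 and 559 TPM in cachectic mice, compared to 179, 276, 265, 231 and 197 TPM in controls and 313, 199, 167, 239.9 and 238 TPM in non-cachectic mice. All 5 cachectic mice were above all others. The difference was 1.37 ± 0.42 (SE; limma, adjusted p = 0.0358) from controls, and 1.37 ± 0.42 (SE; limma, adjusted p = 0.0390) from non-cachectic mice. The 6-week call against controls remained in 3 of the 10 fits that leave out 1 mouse each, with an adjusted p of up to 0.147 (limma, without cachectic replicate 1).

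At 8 weeks Glul ranged from 116 to 1182 TPM in cachectic mice, with a median of 639.9 TPM. Controls had 109, 108, 190.3, 195 and 266 TPM and non-cachectic mice 213, 141, 304, 227 and 183 TPM. Of the 7 cachectic mice 6 were above all controls, with 1107 and 1182 TPM in replicates 1 and 6, and replicate 3 lay among the controls at 116 TPM. The difference from controls was 1.84 ± 0.39 (SE; limma, adjusted p = 0.000529), a 3.58-fold change, and 2.23 ± 0.32 (SE; limma, adjusted p = 4.30e-07) without the 4 libraries. From non-cachectic mice it was 1.498 ± 0.39 (SE; limma, adjusted p = 0.00556).

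At 4 weeks the cachectic mice covered a wide range of Glul, with 205, 677, 366, 567.8 and 166 TPM. The 3 highest were replicates 2, 4 and 3, which were also the 3 highest cachectic mice for Slc3a2 at that time. Control mice at 4 weeks had 149.5, 175, 295, 312 and 368 TPM, so that replicates 1, 3 and 5 lay within the control range, and the difference was 0.49 ± 0.42 (SE; limma, adjusted p = 1.00).

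Among the 4 genes of branched-chain catabolism 0 were called by limma at 6 weeks (1 at an unadjusted p under 0.05, Bckdhb, and 0 by Dunn's test) and 1, Bckdk, at 8 weeks. Bcat2, at chr7:45570153-45589711, plus strand, was called in none of the comparisons in the main fit of all mice, which holds no covariate. Its level at 6 weeks was 108 ± 6.40 TPM (SD, n = 5) in cachectic mice, compared to 109 ± 6.14 TPM (SD, n = 5) in controls, and 107 ± 34.2 TPM (SD, n = 7) and 111 ± 10.3 TPM (SD, n = 5) at 8 weeks. The 95% interval of its log2 difference was from -0.39 to 0.36 at 6 weeks and from -0.47 to 0.23 at 8 weeks, and the sign at 8 weeks depends on the scaling (0.031 after median-ratio scaling). At 8 weeks the cachectic replicates 2 and 3 had 71.04 and 48.4 TPM and the other 5 from 109.8 to 137 TPM.

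Bckdha, the alpha subunit of the E1 component, at chr7:25629946-25658981, minus strand, was 168, 166, 135, 142 and 133 TPM in cachectic mice at 6 weeks, 185, 203, 152, 161 and 185 TPM in controls and 195, 172, 181, 178 and 184 TPM in non-cachectic mice. All cachectic mice were below all non-cachectic mice, but not below all controls. At 8 weeks it ranged from 55.2 to 192 TPM in cachectic mice (median 155 TPM), with 164, 204, 155, 196 and 182 TPM in controls. The difference was -0.25 ± 0.22 (SE; limma, adjusted p = 0.574) at 6 weeks and -0.48 ± 0.20 (SE; limma, adjusted p = 0.108) at 8 weeks, and neither passed the test with all mice. Without the 4 libraries the latter was -0.28 ± 0.11 (SE; limma, adjusted p = 0.0386). The gene B3gnt8, on the other strand of the same locus, had a mean of only 0.846 TPM in controls.

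Bckdhb, the beta subunit, at chr9:83925145-84124240, plus strand, had differences from controls of the opposite sign at 6 and 8 weeks, called at neither with all mice. At 6 weeks its level was 66.2, 60.2, 57.7, 62.7 and 62.2 TPM in cachectic mice, above all controls at 54.5, 48.4, 51.2, 51.3 and 47.3 TPM and all non-cachectic mice at 50.3, 46.6, 51.5, 49.1 and 54.5 TPM. The difference of 0.29 ± 0.13 (SE; limma, adjusted p = 0.173) did not pass the test with all mice, and was 0.29 ± 0.093 (SE; limma, adjusted p = 0.0159) without the 4 libraries. After median-ratio scaling it was 0.097 (limma, adjusted p = 0.781), and with the mitochondrial share in the model 0.089 (limma, adjusted p = 0.527). At 8 weeks the ranges overlapped, at 39.5 to 71.5 TPM in cachectic and 43.4 to 54.1 TPM in control mice, and the difference was 0.15 ± 0.12 (SE; limma, adjusted p = 0.449).

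The ratio of the E1 transcripts stood apart in cachectic mice. Bckdhb over Bckdha within a library was 0.362 to 0.469 in cachectic mice at 6 weeks, 0.238 to 0.336 in controls and 0.258 to 0.297 in non-cachectic mice. At 8 weeks it was 0.339 to 0.715 (median 0.373), against 0.252 to 0.291 and 0.269 to 0.328. The cachectic range did not overlap the others at either week, and at 4 weeks it did. The libraries with few genes also had high ratios, with 0.515 and 0.560 at 2 weeks for cachectic replicates 3 and 4, 0.386 for non-cachectic replicate 5 and, at 8 weeks, 0.715 for cachectic replicate 3, but no library at 6 weeks is among them. The other 6 cachectic mice at 8 weeks had from 0.339 to 0.484. The ratio was formed after the values were known and was not tested.

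**Figure D2:**
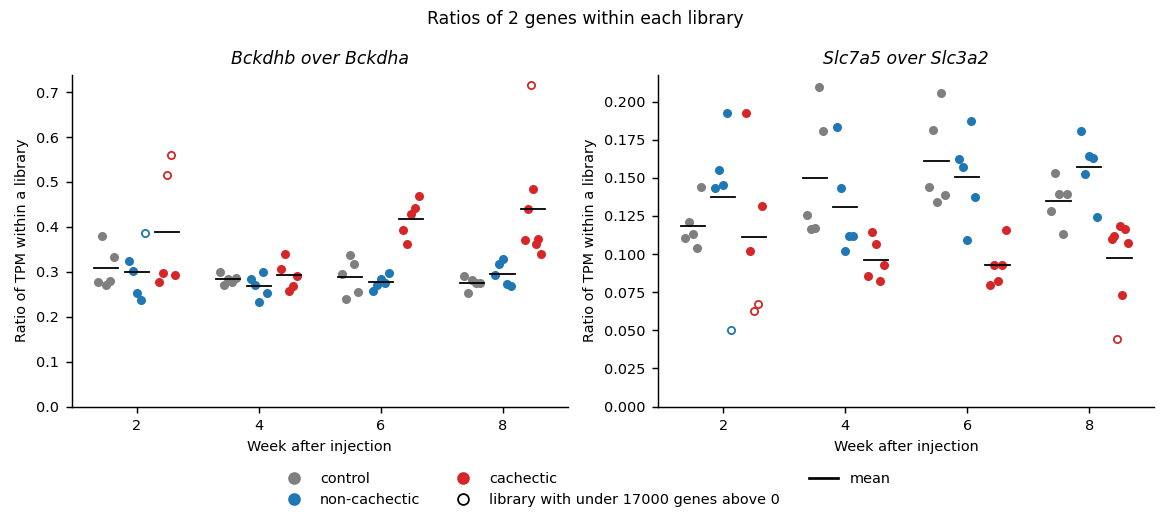
Ratio of Bckdhb to Bckdha TPM (left) and of Slc7a5 to Slc3a2 TPM (right) within each library, by week after injection, on linear axes from 0. Points are mice, black lines are means and open points are the 4 libraries with fewer than 17000 genes above 0. At 6 weeks the cachectic mice lie above all others on the left (0.362 or more), and below all controls on the right (at most 0.116).

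Bckdk, the kinase that switches off the dehydrogenase complex, at chr7:127904082-127910221, plus strand, was the only 1 of the 10 genes called lower in the main fit of all mice. At 8 weeks its level ranged from 34.0 to 71.9 TPM in cachectic mice (median 64.2 TPM), below all controls at 74.1, 84.0, 75.4, 82.9 and 74.7 TPM. Non-cachectic mice had 72.2, 79.9, 70.7, 77.7 and 69.2 TPM, and the highest cachectic value exceeded 2 of these. The difference from controls was -0.44 ± 0.14 (SE; limma, adjusted p = 0.0209), and -0.32 ± 0.072 (SE; limma, adjusted p = 0.000470) without the 4 libraries. The call was lost without cachectic replicate 3 alone (-0.32, limma, adjusted p = 0.0676) and without control replicate 2 or 4. From non-cachectic mice it was -0.36 ± 0.14 (SE; limma, adjusted p = 0.0736) with all mice and -0.24 ± 0.072 (SE; limma, adjusted p = 0.00853) without the 4 libraries.

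At 6 weeks Bckdk was 62.6, 73.5, 67.7, 60.9 and 58.9 TPM in cachectic and 72.0, 77.3, 70.7, 73.0 and 75.4 TPM in control mice, and the difference of -0.19 ± 0.15 (SE; limma, adjusted p = 0.510) did not pass the test. After median-ratio scaling of the libraries it was -0.38 (limma, adjusted p = 0.0157). The ratio of Bckdk to its substrate Bckdha did not separate the groups, with 0.300 to 0.615 in cachectic and 0.410 to 0.487 in control mice at 8 weeks.

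**Figure D3:**
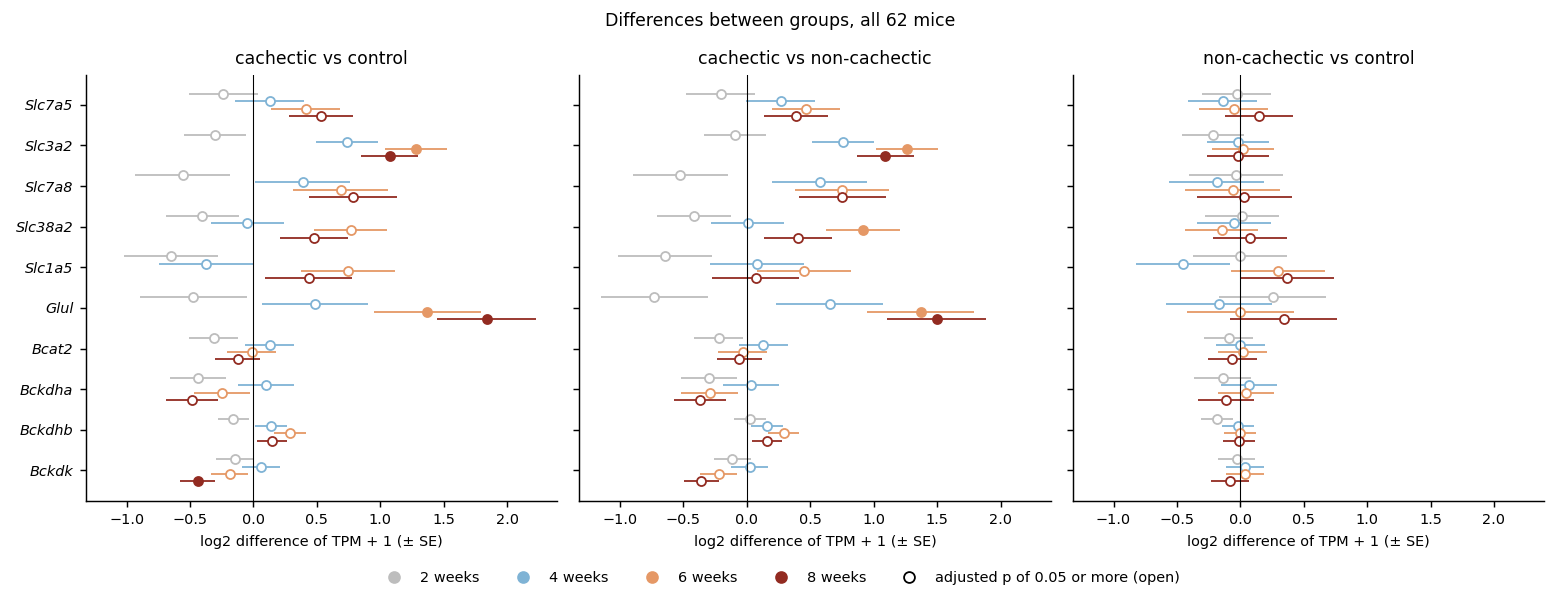
Differences of mean log2(TPM + 1) between groups (± SE from limma) for the 10 genes at each week, from all 62 mice; filled points have an adjusted p under 0.05. Slc3a2 and Glul are filled at 6 and 8 weeks in both comparisons of cachectic mice, Slc38a2 at 6 weeks against non-cachectic mice and Bckdk at 8 weeks against controls, and no point is filled between non-cachectic and control mice.

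Counting the genes whose groups do not overlap gives a view that does not depend on the fitted spread. At 6 weeks 4 of the 10 genes did not overlap between cachectic and control mice (Slc3a2, Slc38a2, Glul and Bckdhb), against 18.9% of all genes, and 6 between cachectic and non-cachectic mice (these 4, Slc7a8 and Bckdha), against 16.9%. At 8 weeks, with replicate 3 among the cachectic mice, it was 1 of 10 against controls (Bckdk), with 6.34% of all genes, and 0 of 10 against non-cachectic mice, with 4.88%.

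Without the 4 libraries the spread shared by all conditions is smaller, and more genes pass, both among the 10 and over the whole table. Against controls 6 of the 10 genes were then called at 6 weeks, against 31.2% of all genes: Slc3a2, Slc7a8, Slc38a2, Glul and Bckdhb higher, and Bckdk lower. At 8 weeks it was 8 of 10, against 34.6%: Slc7a5, Slc3a2, Slc7a8, Slc38a2, Glul and Bckdhb higher, and Bckdha and Bckdk lower, with Slc1a5 and Bcat2 not called. Against non-cachectic mice it was 8 of 10 at 6 weeks (27.2% of all genes) and 7 of 10 at 8 weeks (33.3%). At 4 weeks 1 of 10, Slc3a2, was called in each comparison, against 1.85% of all genes for controls and 2.23% for non-cachectic mice. The 6-week differences themselves are the same in both fits, since no 6-week library was left out.

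Another scaling of the libraries moves all genes together. Median-ratio scaling shifted the median difference of all genes from controls from 0.17 to 0.0093 at 6 weeks and from -0.094 to 0.012 at 8 weeks, and higher genes made up 46.6% of all calls at 6 weeks, against 82.8% in TPM. Slc3a2, at 1.09 and 1.22, and Glul, at 1.18 and 2.00, rose at 6 and 8 weeks under this scaling too. Bckdha was then lower at both weeks (-0.44 and -0.33; limma, adjusted p = 0.0102 and 0.0200), and Bckdhb stayed positive but was not called at either (0.097 and 0.30). Against controls at 6 and 8 weeks only Bcat2, at 8 weeks, changed its sign among the 10 genes under this scaling. Slc3a2 and Glul were called at both weeks under quantile normalization too.

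The share of TPM from mitochondrial genes differed between the groups at 6 weeks, at 44.9% to 47.9% in control, 43.2% to 47.9% in non-cachectic and 34.3% to 44.9% in cachectic mice, and at 8 weeks, at 40.9% to 49.3%, 44.7% to 45.6% and 32.5% to 57.1%. With this share in the model (limma) the difference of Slc3a2 from controls was 0.76 (adjusted p = 0.000134) at 6 weeks and 0.74 (adjusted p = 2.53e-06) at 8 weeks. That of Glul was 0.66 (adjusted p = 0.128), so that its call at 6 weeks was lost, and 1.39 (adjusted p = 0.000128) at 8 weeks. Genes of branched-chain catabolism were then called lower at both weeks: Bckdha at -0.69 (adjusted p = 0.000523) and -0.77 (adjusted p = 2.51e-06), Bckdk at -0.47 (adjusted p = 0.000828) and -0.62 (adjusted p = 3.48e-07), and Bcat2 at -0.39 (adjusted p = 0.0209) and -0.36 (adjusted p = 0.00741), while Bckdhb was at 0.089 (adjusted p = 0.527) and 0.022 (adjusted p = 0.855). The same fit called a far larger share of all genes at both weeks, as given in the closing section, so that these calls alone do not set the genes apart. The light chains Slc7a5, at -0.14 (adjusted p = 0.585), and Slc7a8, at -0.059 (adjusted p = 0.880), were on the other side of 0 at 6 weeks, and not called. Whether the mitochondrial share belongs to the RNA quality of a library or to its muscle was not tested.

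**Figure D4:**
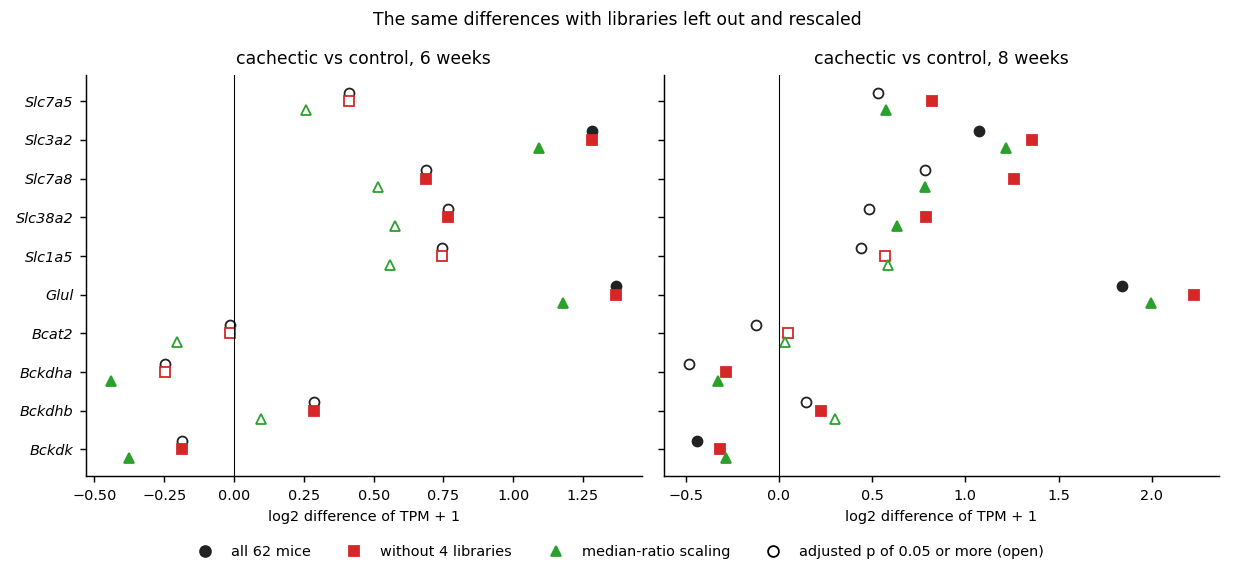
Difference of log2(TPM + 1) between cachectic and control mice at 6 weeks (left) and 8 weeks (right) for the 10 genes with all 62 mice (circles), without the 4 libraries that list few genes (squares) and after median-ratio scaling (triangles). Filled symbols have an adjusted p under 0.05; Slc3a2 and Glul are filled in all 3 fits at both weeks, and Slc1a5 and Bcat2 in none.

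At 2 and 4 weeks none of the 10 genes was called. At 2 weeks 0 of 10 were called between cachectic and control mice, with 0 at an unadjusted p under 0.05 and 0 by Dunn's test, against 29.3% of all genes, and 0 of 10 between cachectic and non-cachectic mice, likewise with 0 and 0, against 0%. All 10 log2 differences from controls at 2 weeks were negative, with a median of -0.36 beside -0.42 over all genes, and the cachectic group then holds 2 of the 4 libraries with few genes. After median-ratio scaling 7 of the 10 were positive at 2 weeks and Bckdk was called higher, at 0.36 (limma, adjusted p = 0.0214). At 4 weeks 0 of 10 were called against controls, with 1 (Slc3a2) at an unadjusted p under 0.05 and 0 called by Dunn's test, against 0.0221% of all genes, and 0 of 10 against non-cachectic mice, with 1 and 0, against 0.0295%.

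The change of the difference between cachectic and control mice from 2 to 8 weeks was called for 2 of the 10 genes, against 5.27% of all genes. It was 1.38 ± 0.33 (SE; limma, adjusted p = 0.0126) for Slc3a2 and 2.31 ± 0.57 (SE; limma, adjusted p = 0.0160) for Glul. Neither was called without the 3 control libraries of 2 weeks with high hepatocyte markers (1.14 and 1.63, limma, adjusted p = 0.543 and 0.672), or when the compared mice were fitted alone (adjusted p = 0.348 and 0.303). From 4 to 8 weeks the change was called for 0 of 10 genes, with 2 at an unadjusted p under 0.05, and from 6 to 8 weeks for 0 of 10, with 0, against 0% of all genes in both. Dunn's test was not run on these changes.

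Next, the other genes of the same pathways were examined. Unless non-cachectic mice are named, the differences in the following paragraphs are between cachectic and control mice on the log2 scale, ± SE, with adjusted p from limma. The counts called in these lists and among the markers are to be read against the 6.79% of all genes called at 6 weeks and 14.8% at 8 weeks (31.2% and 34.6% without the 4 libraries). Of 22 further genes of branched-chain catabolism, 21 were tested. At 6 weeks 1 was higher in cachectic than in control mice and none lower, and at 8 weeks 1 was higher and 4 were lower, with a median difference of -0.041 and -0.17. Higher at 6 weeks was Echs1, the enoyl-CoA hydratase, at 0.28 ± 0.087 (adjusted p = 0.0340), and at 8 weeks Hsd17b10, the dehydrogenase of isoleucine breakdown, at 0.41 ± 0.075 (adjusted p = 7.34e-05). Lower at 8 weeks were Ppm1k, the phosphatase that undoes the action of Bckdk, at -0.62 ± 0.20 (adjusted p = 0.0283), Mccc2, a subunit of the carboxylase of leucine breakdown, at -0.47 ± 0.13 (adjusted p = 0.00903), Acad8, the dehydrogenase of valine breakdown, at -0.37 ± 0.10 (adjusted p = 0.00846), and Pcca, a subunit of propionyl-CoA carboxylase, at -0.28 ± 0.097 (adjusted p = 0.0434). Both the kinase and the phosphatase of the complex were lower at 8 weeks. Dbt and Dld, the E2 and E3 components, named for their role after their values were seen, were at -0.17 ± 0.20 (adjusted p = 0.643) and -0.21 ± 0.075 (adjusted p = 0.0531). Without the 4 libraries 4 were higher and 6 lower at 8 weeks. Against non-cachectic mice, Echs1 at 6 weeks and Ppm1k and Pcca at 8 weeks were not called (limma, adjusted p = 0.0672, 0.109 and 0.144). Hsd17b10, Mccc2 and Acad8 were called in that comparison at 8 weeks.

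Of 31 other amino acid transporters 24 were tested, and 0 were called by limma at 6 weeks (4 at an unadjusted p under 0.05, and 0 by Dunn's test), and 1 higher and 1 lower at 8 weeks, a smaller share than that of all genes. Slc43a1 (LAT3), a further carrier of branched-chain amino acids, went from 3.55 ± 0.553 TPM in control to 8.08 ± 5.28 TPM in cachectic mice at 8 weeks, a difference of 0.77 ± 0.25 (adjusted p = 0.0324), and Slc16a10 (TAT1), a carrier of aromatic amino acids, from 6.88 ± 1.03 TPM in control to 3.98 ± 2.62 TPM in cachectic mice, a difference of -0.81 ± 0.25 (adjusted p = 0.0184). Without the 4 libraries 3 were higher and none lower at 6 weeks, and 2 higher and 3 lower at 8 weeks. Slc7a6, named after its value was seen, a light chain that also pairs with Slc3a2, was then called with 0.77 (adjusted p = 4.72e-06) at 8 weeks, compared to 0.41 ± 0.27 (adjusted p = 0.344) with all mice. Against non-cachectic mice at 8 weeks, neither Slc43a1 nor Slc16a10 was called (limma, adjusted p = 0.192 and 0.0614).

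Of 13 genes of glutamine use and transamination 12 were tested. Gfpt2, which uses glutamine to make hexosamines, was higher at 6 weeks, at 0.93 ± 0.28 (adjusted p = 0.0302), and Ppat, which uses it for purine synthesis, lower at 8 weeks, at -0.44 ± 0.13 (adjusted p = 0.0121). Of 14 genes of the amino acid response, all tested, Asns, asparagine synthetase, was higher at 6 weeks, at 0.98 ± 0.21 (adjusted p = 0.00181), and at 8 weeks, at 0.81 ± 0.19 (adjusted p = 0.00211), and Psat1 of serine synthesis at 8 weeks, at 0.76 ± 0.16 (adjusted p = 0.000630). Atf4, which encodes the main factor of this response and is named for its role, was at 0.24 ± 0.20 (adjusted p = 0.474) at 8 weeks with all mice, and 0.51 (adjusted p = 0.000394) without the 4 libraries. None of the 14 was called lower at either week. Against non-cachectic mice Gfpt2 was not called at 6 weeks (limma, adjusted p = 0.104). Ppat and Psat1 at 8 weeks, and Asns at 6 and 8 weeks, were called in that comparison.

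Glul and Klf15 are among the known targets of the glucocorticoid receptor in muscle, and Klf15 is known to act on Bcat2. Of 13 genes of this axis 2 were higher at 6 weeks, and 4 higher and 1 lower at 8 weeks. Fkbp5 went from 13.1 ± 3.69 TPM in control to 82.5 ± 41.0 TPM in cachectic mice at 6 weeks, a difference of 2.50 ± 0.71 (adjusted p = 0.0209), and was at 2.51 ± 0.66 (adjusted p = 0.00502) at 8 weeks. Cebpd, a transcription factor, was at 1.71 ± 0.48 (adjusted p = 0.0199) and 2.37 ± 0.45 (adjusted p = 0.000104). At 8 weeks Sgk1, a kinase, at 1.04 ± 0.30 (adjusted p = 0.0119), and Tsc22d3 (GILZ), at 0.93 ± 0.33 (adjusted p = 0.0470), were higher too. Nr3c1, the gene of the receptor itself, was lower, at -0.63 ± 0.18 (adjusted p = 0.00954). Klf15, named for its role, was at 0.60 ± 0.31 (adjusted p = 0.214) with all mice and 1.01 (adjusted p = 7.29e-05) without the 4 libraries. The median over the 13 genes was 0.61 at 6 weeks and 0.68 at 8 weeks, against 0.17 and -0.094 over all genes. Against non-cachectic mice at 8 weeks, Sgk1 and Tsc22d3 were not called (limma, adjusted p = 0.313 and 0.132). Fkbp5 and Cebpd at 6 and 8 weeks, and Nr3c1 at 8 weeks, were called in that comparison.

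**Figure D5:**
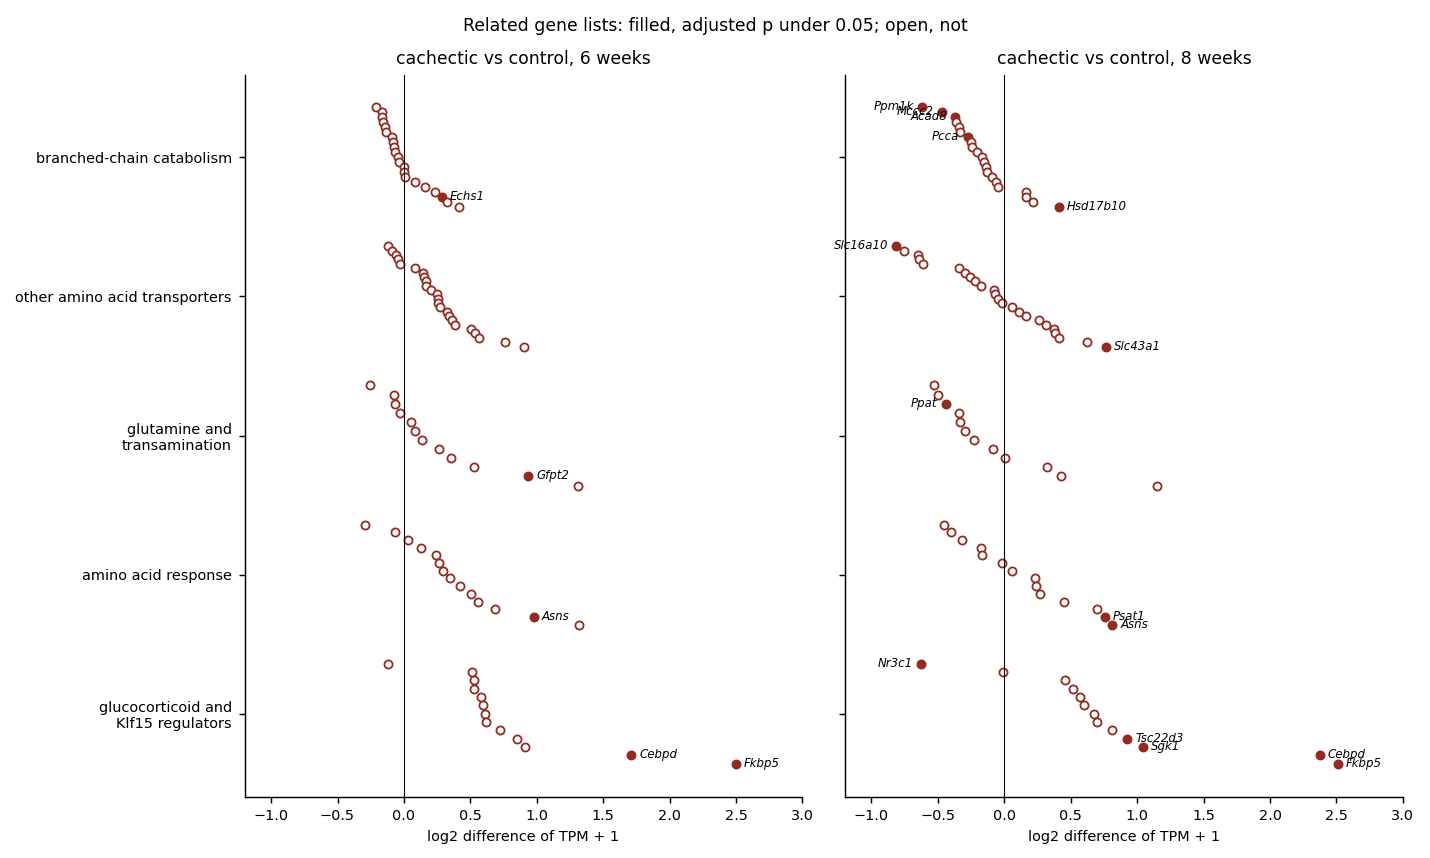
Difference of log2(TPM + 1) between cachectic and control mice at 6 weeks (left) and 8 weeks (right) for each tested gene of 5 related lists, the 10 genes themselves not included. Each point is a gene, sorted within its list, and filled points with names have an adjusted p under 0.05. The largest differences are those of Fkbp5 and Cebpd at both weeks.

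Some markers of other cell types were called too between cachectic and control mice at 8 weeks, where 14.8% of all genes were called, a share that several of these lists did not exceed. Of 7 adipocyte markers 1 was called higher, and their summed level was 655 to 1410.4 TPM in control and 897 to 4436 TPM in cachectic mice. Of 7 macrophage markers 2 were higher, with 207 to 484 TPM and 185 to 988 TPM, and of the 4 neutrophil markers tested 2 were higher, with 4.26 to 15.2 TPM and 8.97 to 74.3 TPM over all 5. Of 6 fibroblast markers 1 was higher and 4 were lower, with 546 to 1089 TPM (median 1029 TPM) and 682 to 1681 TPM (median 874 TPM). Such sums are led by single genes, with medians over all mice of 641 TPM for Dcn of fibroblasts, 694 TPM for Fabp4 of adipocytes and 256 TPM for Lyz2 of macrophages. Of 6 endothelial markers 1 was lower, with 205 to 262 TPM and 55.8 to 257 TPM, and of 12 muscle markers 1 was higher and 1 lower. Of 10 hepatocyte markers 0 were called by limma (1 at an unadjusted p under 0.05, and 0 by Dunn's test), with 16.6 to 431 TPM and 52.3 to 2099.9 TPM, and of 4 mesothelial markers 0 (0 and 0 likewise), with 37.9 to 141 TPM and 24.3 to 140.3 TPM. The hepatocyte marker Alb was at 0 in 3 and Fabp1 in 15 of the 62 mice, the adipocyte marker Lep in 3, and Cxcr2 and Retnlg of neutrophils in 1 each. At 6 weeks 3 muscle, 2 macrophage and 1 fibroblast marker were called, all higher. The number of genes called among the 10 was the same, 2 at 6 weeks and 3 at 8 weeks, when the hepatocyte level was added to the model. The part of the other cell types in the differences was not tested.

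Finally, the genes were compared with each other over mice, as Pearson's r of log2(TPM + 1) less the mean of each condition. These values are a description: the points share libraries, and for all 45 pairs r is lower when the 4 libraries with few genes are left out. In all 62 mice r was 0.87 between Slc3a2 and Slc7a5, 0.87 between Slc3a2 and Slc7a8 and 0.85 between Slc3a2 and Glul, and in the other 58 mice 0.71, 0.72 and 0.74. Bcat2 and Bckdha had r of 0.92 and 0.74. Bckdk had r to Slc3a2 of 0.58 in 62 and -0.071 in 58 mice, and to Glul of 0.41 and -0.16, but to Bcat2 of 0.86 and 0.53 and to Bckdha of 0.87 and 0.46.

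The genes of the whole table most like each of them, with r over the 62 mice in parentheses, were Grina (0.94), Aup1 (0.94) and Eif3g (0.93) for Slc3a2, Bcl2l1 (0.91), Uvrag (0.90) and Wbp1l (0.90) for Slc7a5, and Pnpla7 (0.93), Ing1 (0.93) and Foxo3 (0.93) for Slc7a8. For Slc38a2 they were Zbtb44 (0.86), Tgfbr1 (0.86) and Cnksr1 (0.85), for Slc1a5 Aacs (0.90), Sfxn1 (0.89) and Cebpa (0.89), and for Glul Il6ra (0.92), Prodh (0.92) and Map3k6 (0.92). For Bcat2 they were Ivd (0.93), Bckdha (0.92) and Me3 (0.91), for Bckdha Arfgap2 (0.94), Ptcd1 (0.93) and Elac2 (0.92), for Bckdhb Gcdh (0.88), Hibadh (0.83) and Fdft1 (0.83), and for Bckdk Cs (0.95), Uqcrc1 (0.95) and Aes (0.94). The values for Glul and Slc1a5 moved least without the 4 libraries, with 0.91 for Il6ra, the interleukin-6 receptor, and Glul, and 0.90 for Aacs and Slc1a5 in 58 mice, whereas Bckdha and Ptcd1 went to 0.69.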

How the data were processed

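RNA was extracted from diaphragm muscles of 62 mice, 1 library a mouse. Per the methods and the labels, the authors prepared libraries with an Illumina TruSeq kit (the methods and the labels name different versions of it), sequenced paired-end reads, trimmed and filtered them, and used CLC Genomics Workbench for alignment to the mm10 build (GRCm38) and for TPM, the unit that the authors deposited for each gene in each mouse. Which annotation was used, whether strand entered the counting and how reads with several matches were placed is not given in the sources used here. TPM holds no read depth, and the proportion of a library taken by mitochondrial genes moves the TPM of all other genes.

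Mice were grouped by the treatment and time in the labels. Of 47643 genes, 13578 reached 1 TPM in 5 mice or more and were tested, and log2(TPM + 1) was fitted with limma (version 3.58.1, R 4.3.3), with 1 mean for each of the 12 conditions and a prior spread that depends on the level. Genes were called at an adjusted p under 0.05 (Benjamini-Hochberg over all genes tested, within each of 16 comparisons). The study itself used rank tests (Kruskal-Wallis, then Dunn), and Dunn's test was run here as an alternative. The script was tested on simulated data.

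The 10 genes, the related lists and the marker lists were chosen with earlier results of these data known. The text names all 10, the genes of each related list with the smallest adjusted p under 0.05 (up to 6 a list and week), the 3 genes most like each of the 10, and a few that are said to be chosen after their values were seen. Positions are those of GENCODE vM21 on GRCm38, and promoter sequences are those of RefSeq (GRCm38.p6). Alternatives were median-ratio scaling, quantile normalization, another pseudocount (0.1), all genes without a filter, TPM without mitochondrial genes, library weights, the replicate block, 2 covariates, libraries left out, single mice left out, a fold minimum, a fit of the compared conditions only, and Dunn's test. Most other genes of these lists were left out of the text.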

Additional observations from a re-analysis of the deposited data

Results flagged for a closer look

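Among the 120 sets of values of 1 gene in 1 condition, 13 held a mouse far from the others of its condition. For independent sets chance alone gives about 1 in 20, but sets of the same mice are not independent, so that the 13 cannot be set against this share. Of these, 7 were in the libraries that listed few genes, 6 of them in cachectic replicate 3 at 8 weeks. That library had 0.505 TPM of Slc7a5, with a group median of 4.98 TPM, 11.4 TPM of Slc3a2 (46.4 TPM), 0.199 TPM of Slc7a8 (9.48 TPM), 29.4 TPM of Slc38a2 (129 TPM), 116 TPM of Glul (639.9 TPM) and 34.0 TPM of Bckdk (64.2 TPM). Non-cachectic replicate 5 at 2 weeks had 0.511 TPM of Slc7a5 (2.27 TPM).

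The other 6 were in libraries with the usual number of genes. Slc7a8 was high in control replicate 5 at 4 weeks with 6.12 TPM (median 4.05 TPM), in control replicate 3 at 6 weeks with 5.43 TPM (3.94 TPM), in non-cachectic replicate 2 at 4 weeks with 5.94 TPM (3.43 TPM) and in cachectic replicate 1 at 6 weeks with 14.1 TPM (6.23 TPM). Bckdhb was 63.8 TPM in cachectic replicate 2 at 4 weeks (50.5 TPM), the mouse with the highest Slc3a2 and Glul of its group. Slc3a2 was 14.7 TPM in control replicate 1 at 8 weeks (18.9 TPM).

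From 2 to 8 weeks the cachectic minus control difference rose by 1.38 on the log2 scale for Slc3a2 and by 2.31 for Glul, by a contrast of conditions in limma (adjusted p = 0.0126 and 0.0160), and neither call remained without the 3 control libraries of 2 weeks with high hepatocyte markers.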

How the results depend on the processing

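Over all settings and comparisons, 3838 values of single genes kept their direction and side of the threshold, 129 passed it, 57 lost it, 25 moved and 1 reversed, that of Bckdk against controls at 2 weeks after median-ratio scaling (0.36 on the log2 scale). The numbers of the 10 genes called follow, with the share of all genes called by the same fit in parentheses. Against controls at 2, 4, 6 and 8 weeks (0, 0, 2 and 3 as reported) median-ratio scaling gave 1 (17.5%), 1 (0.169%), 4 (7.45%) and 7 (24.0%). At 4 weeks 1 was called also with quantile normalization (0.317%), library weights (7.87%) or without the 4 libraries with few genes (1.85%). At 6 weeks it was 1 without a filter on low values (3.74%), 9 with weights (48.4%), 4 with the mitochondrial share as covariate (30.8%), 6 without the 4 libraries (31.2%), 7 with the compared conditions only (29.7%) and 0 by Dunn's test (0%). At 8 weeks it was 6 with quantile normalization (25.3%), 8 with weights (36.2%), 5 with the mitochondrial share (59.5%), 8 without the 4 libraries (34.6%) and 0 with the compared conditions only (4.07%). Against non-cachectic mice (0, 0, 3 and 2 as reported) it was 1 at 4 weeks with median-ratio scaling (0.199%), quantile normalization (0.214%), weights (8.21%) or without the 4 libraries (2.23%). At 6 weeks it was 1 without a filter (3.46%), 5 with median-ratio scaling (7.67%) or quantile normalization (9.24%), 8 with weights (40.6%), without the 4 libraries (27.2%) or with the compared conditions only (24.3%), and 0 by Dunn's test (0%). At 8 weeks it was 5 with quantile normalization (22.3%) or the mitochondrial share (58.3%), 4 in TPM without mitochondrial genes (22.8%), 6 with weights (40.9%), 7 without the 4 libraries (33.3%), and 0 with the compared conditions only (2.68%) or by Dunn's test (4.47%). For the change from 2 to 8 weeks (2 as reported) it was 1 with weights (3.24%), 4 with the mitochondrial share (15.2%), 5 without the 4 libraries (19.0%), and 0 with the compared conditions only (0.147%), the replicate block (1.38%), or without the libraries with high hepatocyte markers (0.0295%). For the change from 4 to 8 weeks (0) it was 6 with weights (7.77%) and 2 with the mitochondrial share (5.25%) or without the 4 libraries (1.38%). The calls over all genes thus moved with the setting as well, and the cause was not tested.

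Leaving out 1 mouse gave 0 to 3 genes against controls at 2 weeks (3 without cachectic replicate 2, with 57.0% of all genes, and 1 without replicate 1), 1 to 2 at 6 weeks and 2 to 5 at 8 weeks (5 without cachectic replicate 3, with 18.7%). At 6 weeks only 1 remained without cachectic replicate 1, 2 or 4 or without control replicate 1, 2, 4 or 5. Against non-cachectic mice it was 1 to 2 at 6 weeks, so that no such fit called all 3, with 1 without cachectic replicate 1, 2 or 4 or non-cachectic replicate 2, 3, 4 or 5, and 2 to 5 at 8 weeks, again 5 without cachectic replicate 3 (17.8%). The change from 2 to 8 weeks had 1 to 6, with 1 without control replicate 2 of 2 weeks and 6 without cachectic replicate 3 of 8 weeks (42.0%). Same-numbered mice did not deviate together (r over 0.1 in 18 of 60 pairs, median -0.032), so that the replicate block is no pairing, and it moved no other count by over 1.5 times. Read depth is unknown, so the counting error of low genes such as Slc7a5 could not be given.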
